A study of Mus musculus with 3 samples.

Results

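*Chil1*, *Chad*, *Nell2* and *Fmo2* are 4 of the 31053 genes counted in single cells of the mouse iridocorneal angle and limbus. They were chosen by their measured levels over the cell labels of these libraries, as markers of trabecular meshwork (TM) cells, so that pattern is given as a description and was not tested. Eyes came from 6 week old mice of mixed strain, bred onto ICR to give albino litters, and 2 to 3 mice were pooled for each library. The 2 control libraries were from *Angpt1* flox/flox mice. The single *Angpt1*ΔNC library was from *Angpt1* flox/flox;Wnt1Cre+ mice, in which Cre driven by *Wnt1* deletes *Angpt1* in neural crest derivatives, so both groups carried the floxed alleles and the controls lacked Cre.

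The TM is the filter of cells and matrix beams through which aqueous humor leaves the eye into Schlemm's canal, and its cells arise from the neural crest. *Chil1* encodes a secreted chitinase-like glycoprotein that binds chitin without cleaving it, and *Chad* encodes chondroadherin, a leucine-rich repeat protein of cartilage matrix that binds collagen and integrins. *Nell2* encodes a secreted glycoprotein with EGF-like repeats that acts as a ligand of Robo3 in axon guidance, and *Fmo2* encodes a flavin-containing monooxygenase of the endoplasmic reticulum that oxidizes xenobiotics.

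In mm10 (GRCm38; GENCODE M21), *Chil1* (ENSMUSG00000064246) lies at chr1:134182176-134190181 on the plus strand, and *Fmo2* (ENSMUSG00000040170) at chr1:162874317-162898726 on the minus strand. *Chad* (ENSMUSG00000039084) lies at chr11:94565047-94569127 on the plus strand, wholly inside *Acsf2*, which is on the minus strand. *Nell2* (ENSMUSG00000022454) spans 453330 bases at chr15:95075230-95528559 on the minus strand and overlaps *Tmem117* on the other strand and the intronic transcript 1700129L04Rik on its own. *Acsf2* stood at 0.167, 0.133 and 0.146 UMIs per 10,000 in TM4 of control 1, control 2 and *Angpt1*ΔNC, where *Chad* stood at 11.4, 12.2 and 6.70. The promoters of *Chil1* and *Chad* are shown because these are the members that both tools used here called lower in *Angpt1*ΔNC within TM labels. Each is the 250 bases before the RefSeq start on the plus strand of GRCm38.p6, chr1:134181906-134182155 for *Chil1* and chr11:94564797-94565046 for *Chad*, and capitals mark a match to TATAAA.
Chil1: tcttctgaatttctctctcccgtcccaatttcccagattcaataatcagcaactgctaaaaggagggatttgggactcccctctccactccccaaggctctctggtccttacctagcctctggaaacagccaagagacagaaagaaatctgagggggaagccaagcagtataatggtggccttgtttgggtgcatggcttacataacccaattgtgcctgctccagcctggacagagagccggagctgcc
Chad: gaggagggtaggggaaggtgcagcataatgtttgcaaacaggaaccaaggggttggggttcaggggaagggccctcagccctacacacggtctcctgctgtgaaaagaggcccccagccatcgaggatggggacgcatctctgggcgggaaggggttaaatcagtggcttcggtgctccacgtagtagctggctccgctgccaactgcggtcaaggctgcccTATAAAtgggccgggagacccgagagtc
The match in *Chad* begins 28 bases before the start. TATAAA on either strand was found in 12.4% of 32851 promoter windows of this length, CACGTG in 6.02% and GGAATG in 12.6%, and neither of the last pair was found in the windows of *Chil1*, *Chad* or *Fmo2*.

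The authors kept 9076, 10160 and 6772 cells in control 1, control 2 and *Angpt1*ΔNC, with medians of 6329.5, 6393.5 and 7444 UMIs (unique molecular identifiers, 1 for each captured transcript). Their deposited annotation gives 35 labels, of which TM1 to TM11 are called the TM labels here. Not all are TM cells in the study's reading. It takes TM1 as keratocytes, TM2 as corneal endothelium and TM6 to TM9 as uveal cells, and proposes corneal stroma for TM10. For its expression lists it counted TM3, TM4, TM5, TM7 and TM11 as TM cells. Values for TM1 to TM11 together are therefore not values of TM cells alone. *Angpt1* stood at 37.8 and 39.3 UMIs per 1000000 in the controls and at 0.391 in *Angpt1*ΔNC, which follows the genotype labels. *Xist*, expressed from the inactive X chromosome, stood at 0.0390 and 0.0249 UMIs per 1000000 in the controls and at 652 in *Angpt1*ΔNC. *Ddx3y*, a Y-linked gene, stood at 100.6, 115.3 and 49.1 UMIs per 1000000, so both sexes left RNA in the *Angpt1*ΔNC library and the make-up by sex differs together with the genotype. The study's methods describe pools of mixed sex, which the near absence of *Xist* from both controls goes against. Pairs of libraries shared 13 to 25 cell barcodes. The summed level of 7 TM markers (*Myoc*, *Angptl7*, *Rspo4*, *Tnc*, *Edn3*, *Svep1*, *Nrp2*) was highest in TM4, at 70.8 and 68.6 UMIs per 10,000 in the controls, and was 8.52 and 9.47 in TM11. The summed level of 4 keratocyte markers (*Kera*, *Lum*, *Aldh3a1*, *Ptgds*) exceeded that of the TM markers in both controls in 8 of the 11 TM labels, at 75.2 and 86.7 against 17.8 and 25.1 in TM5 and at 25.2 and 23.9 against 11.6 and 9.19 in TM3. The TM markers were the higher of the pair in both controls only in TM4 and TM7. In *Angpt1*ΔNC the keratocyte sum was higher in all 11. In the controls *Lum* made up 71.0 and 80.3 of that sum in TM5 and 23.7 and 22.4 in TM3. *Kera* stood at 1.10 and 0.857 in TM5 and at 0 and 0.00340 in TM3. Over TM1 to TM11 together *Kera* changed by -2.13 on the log2 scale in *Angpt1*ΔNC.

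The first question was which labels express the 4 genes. A level is the mean over the cells of a label of UMIs of the gene per 10,000 UMIs of the cell. *Chil1*, *Chad* and *Nell2* were highest in TM4, and *Fmo2* was highest in TM11.

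**Figure D1:**
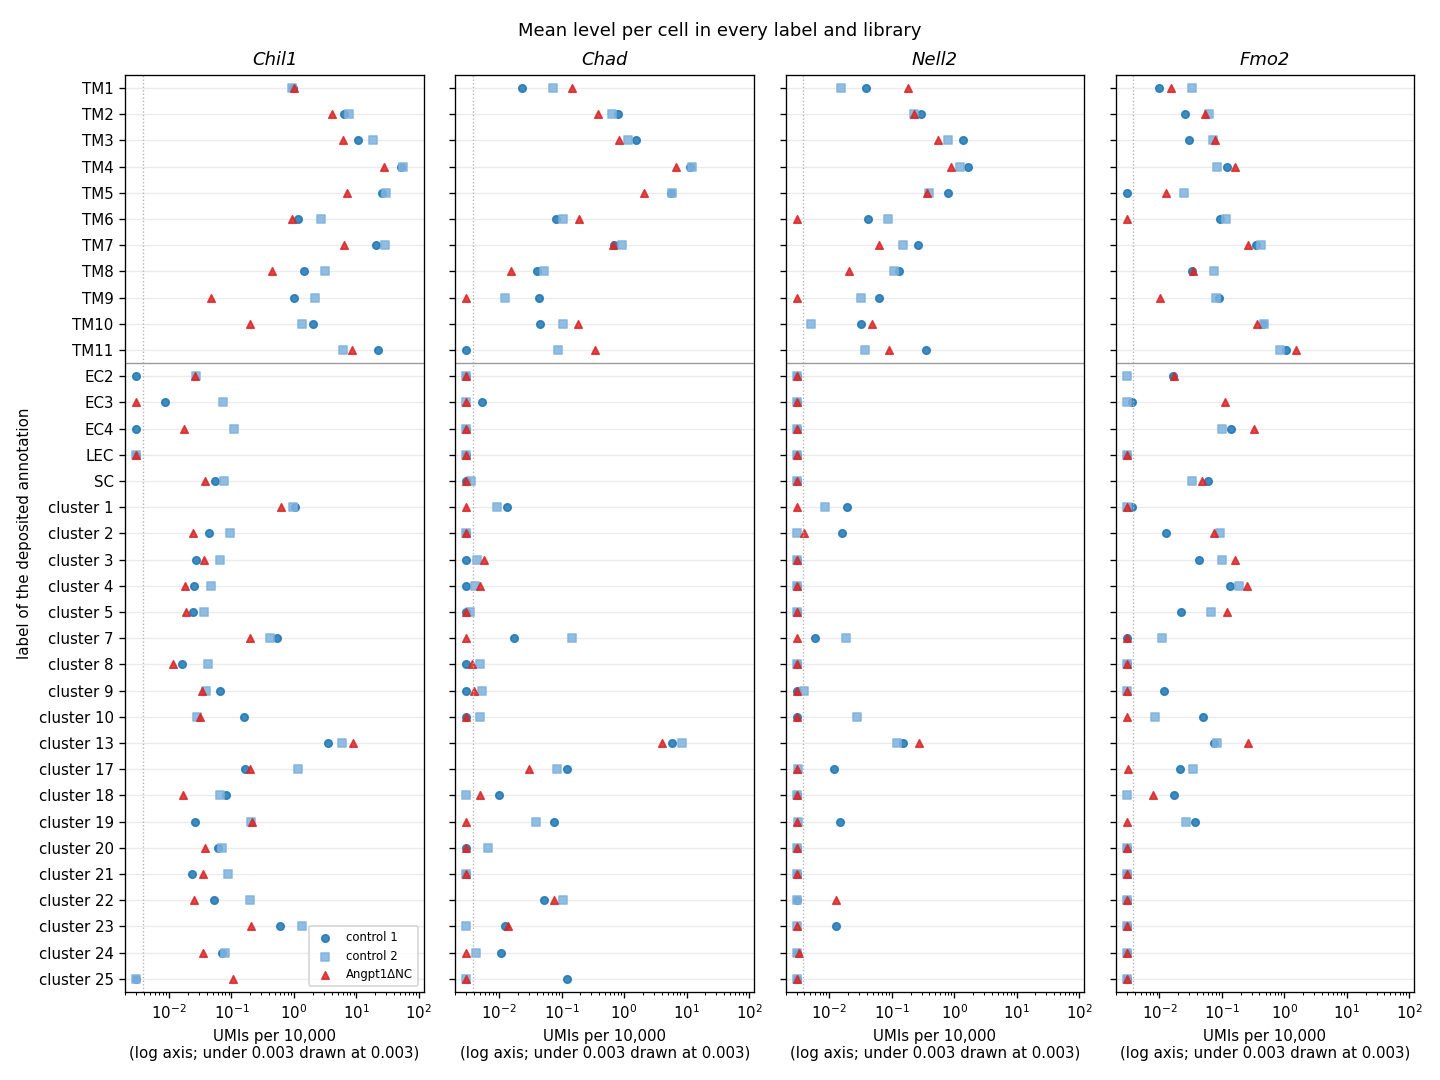
Mean level of each gene (log axis, UMIs per 10,000) in every label of the deposited annotation, with 1 point per library; values under 0.003 are drawn at 0.003. *Chil1*, *Chad* and *Nell2* reach their highest control levels in TM4, and *Fmo2* in TM11.

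*Chil1* in TM4 was 51.3 in control 1, 56.0 in control 2 and 27.9 in *Angpt1*ΔNC. In TM5 it was 25.6, 29.5 and 7.11, and in TM7 20.6, 28.8 and 6.26. TM4 stood apart from TM5, whereas TM5 and TM7 overlapped between the controls. Next came TM3, at 10.5, 18.5 and 6.11, and TM11, where the controls themselves differed 3.64-fold, at 22.2 and 6.10 against 8.61 in *Angpt1*ΔNC. The lowest of the better expressing TM labels was TM2, at 6.27, 7.71 and 4.08. In TM1 *Chil1* was 0.952, 0.949 and 0.987.

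Outside the TM labels *Chil1* was highest in cluster 13, a stromal cluster in which 4 of 4 keratocyte markers were detected in over 10% of cells. Of these, *Kera* stood at 26.0, 20.7 and 10.1 there. *Lum* and *Aldh3a1* were lower in cluster 13 than in TM4, and *Ptgds* lower than in TM7, in every library. *Chil1* was 3.48 and 5.91 in cluster 13 of the controls and 8.80 in *Angpt1*ΔNC, above both of them. Cluster 1, which carried the retinal pigment epithelium markers *Rpe65*, *Ttr*, *Rlbp1* and *Rgr*, had 1.02, 0.965 and 0.623. Those cells were deep, with 63.9% positive for *Chil1* in control 1 falling to 14.5% when each cell was thinned to 2000 UMIs. As a background, 2.17%, 3.13% and 1.35% of the pericytes of cluster 20 held a *Chil1* UMI, at levels of 0.0615, 0.0707 and 0.0371. Clusters 4 and 5, the limbal and corneal epithelium first planned for this reading, were lower. Their levels were 0.0248, 0.0463 and 0.0181 in cluster 4 and 0.0246, 0.0370 and 0.0187 in cluster 5. Of 20 labels outside the TM and cluster 13 with at least 20 cells in each library, 15 had a mean *Chil1* level under 0.1 in the controls.

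*Chil1* was unevenly spread among the cells of a label. In TM4 the median cell had 27.0 and 30.3 UMIs per 10,000 in the controls and 7.20 in *Angpt1*ΔNC, and the highest 10% of cells held 41.3%, 44.0% and 57.6% of the UMIs. The share of TM4 cells with a *Chil1* UMI was 93.4% (exact 95% interval 89.8 to 96.0), 95.2% (92.2 to 97.2) and 83.0% (78.3 to 87.0). Thinned to 2000 UMIs per cell, these shares were 84.3%, 83.9% and 63.0%. Intervals cover counting error only. Labels with lower levels were more uneven than TM4. The highest 10% of cells held 96.2% and 91.5% of the *Chil1* UMIs in TM10 of the controls and 100% and 95.3% in TM8. In TM9 they held 98.2% and 85.3%, and in cluster 13 87.9% and 91.5%. The median cell held none in these 4 labels.

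**Figure D2:**
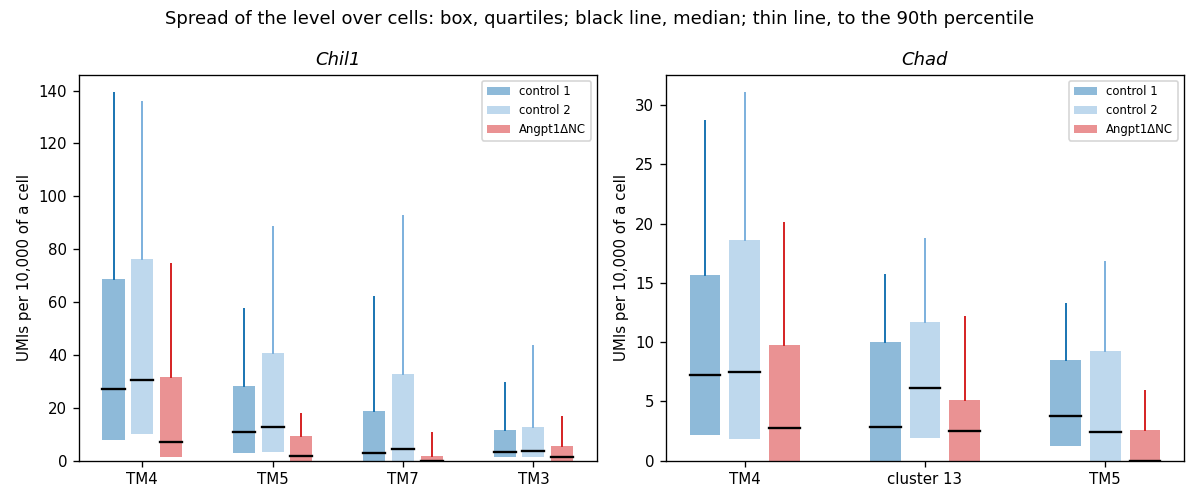
Level of *Chil1* and *Chad* over single cells (UMIs per 10,000 of a cell) by label and library. Boxes span the quartiles, the black line is the median and the thin line reaches the 90th percentile; the TM4 median of *Chil1* is 27.0 and 30.3 in the controls and 7.20 in *Angpt1*ΔNC.

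*Chad* was high in fewer labels than *Chil1*. In TM4 it was 11.4 in control 1, 12.2 in control 2 and 6.70 in *Angpt1*ΔNC. Cluster 13, outside the TM labels, came next at 5.93, 8.42 and 4.07, and TM5 followed at 5.67, 5.89 and 2.10. These 3 labels did not overlap between the controls. *Chad* then dropped to 1.58, 1.16 and 0.845 in TM3 and to 0.695, 0.923 and 0.659 in TM7. Among pericytes, 0 of 461 cells, 2 of 512 and 0 of 222 held a *Chad* UMI, and 0 of 461 allows a share of cells with a UMI of up to 0.651%, taking 3 counts as the floor. Outside the TM labels cluster 13 held most of the *Chad* UMIs, at 14.6%, 13.5% and 5.61% of each library's total. In the 20 remaining labels outside the TM, *Chad* was at most 0.144 in a control and 0.0762 in *Angpt1*ΔNC, and 4 of them held no *Chad* UMI in any library.

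*Nell2* was sparse. In TM4 it was 1.69, 1.22 and 0.879, and in TM3 1.39, 0.799 and 0.554. TM4 and TM3 overlapped between the controls. In TM5 it was 0.787, 0.392 and 0.360. No *Nell2* UMI was seen in the pericytes of any library, and 96.7%, 97.1% and 97.2% of all *Nell2* UMIs lay in the TM labels. In the 20 labels outside the TM and cluster 13 its level was at most 0.0278 in a control and 0.0127 in *Angpt1*ΔNC. The controls differed 2.01-fold in TM5.

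*Fmo2* did not follow the other 3 genes. It was 1.05, 0.865 and 1.55 in TM11, 0.451, 0.468 and 0.364 in TM10, and 0.352, 0.418 and 0.264 in TM7. TM4 held 0.120, 0.0829 and 0.161. *Fmo2* was also detected in cluster 4, which carried the limbal and corneal epithelial keratins, at 0.134, 0.192 and 0.254, and in the endothelial label EC4 at 0.142, 0.1001 and 0.324. Pericytes held none in any library. TM labels held 64.3% and 59.5% of its UMIs in the controls and 31.0% in *Angpt1*ΔNC, where cluster 4 alone held 37.4% against 17.5% and 19.1%. The number of cluster 4 cells also differed, at 414, 507 and 641.

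**Figure D3:**
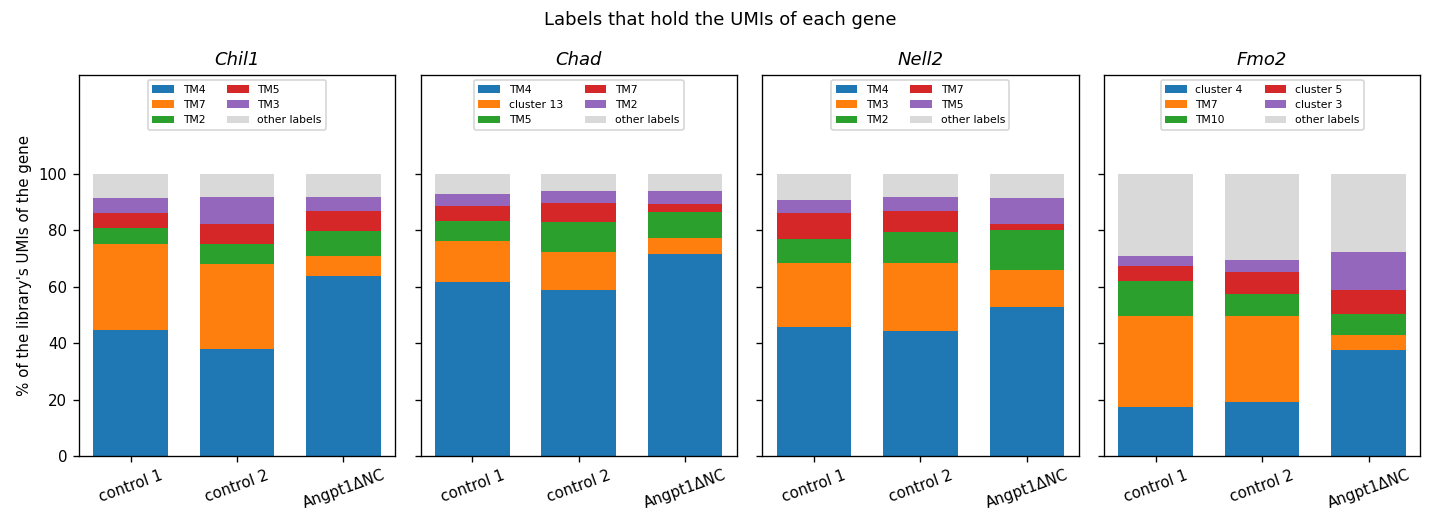
Share of each library's UMIs of a gene (percent) held by the 5 labels with most of them, with the remaining labels in grey. TM4 holds the largest share of *Chil1*, *Chad* and *Nell2* in all 3 libraries, and cluster 4 holds 17.5% and 19.1% of *Fmo2* in the controls and 37.4% in *Angpt1*ΔNC.

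*Chad* was detected in a larger share of the *Chil1*-positive than of the *Chil1*-negative TM4 cells in each library. After thinning to 2000 UMIs, *Chad* was detected in 70.0%, 72.2% and 56.7% of *Chil1*-positive TM4 cells and in 47.7%, 41.5% and 27.2% of *Chil1*-negative ones. In TM5 the thinned shares were 56.1% and 23.1% in control 1, where 41 of only 54 cells were *Chil1*-positive. They were 51.3% and 46.4% in control 2 and 24.1% and 24.2% in *Angpt1*ΔNC. *Fmo2* was rare in TM4, and 18 of its 20, 15 of its 19 and 16 of its 21 positive cells also held *Chil1*. These cells are not replicates and no test was made.

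Likeness between genes was the smaller of the Pearson correlations in the 2 controls, over 32 labels, of log2(level + 0.1). The labels share libraries and depth, and the correlations are descriptions. The order depends on the pseudocount: with 1 in place of 0.1, *Cilp2* came first for *Chad* (0.86), *Nell2* was at 0.77, and 3 of the 5 nearest genes were shared, as they were for *Chil1*. Nearest to *Chil1* were 1500015O10Rik (0.89), *Itgbl1* (0.88) and *Clec11a* (0.88). Nearest to *Chad* were *Nell2* (0.83), *Myoc* (0.82), the TM gene that encodes myocilin, and *Fmod* (0.82), which encodes the matrix protein fibromodulin. *Nell2* was most like *Ltbp2* (0.92), which encodes a microfibril-associated protein. *Fmo2* was most like *Cfb* (0.80), complement factor B, and *Col6a6* (0.73), a collagen VI chain, and its likeness to *Chad* was 0.08.

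Of 7 chitinase family genes, *Chia1* and *Chil4* had no UMI in any kept cell, and *Chil3* was highest in cluster 23 at 0.470, 1.73 and 0.684. *Nell1* had 31, 23 and 23 UMIs in all. Of 8 leucine-rich repeat matrix genes related to *Chad*, *Tsku* was also highest in TM4, at 0.330, 0.425 and 0.413, and *Prelp* was highest in cluster 13 at 7.70, 10.4 and 9.91. *Fmo1*, which lies beside *Fmo2* on chromosome 1, was highest in TM7 at 4.81, 5.71 and 2.63.

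The second question was whether the levels differed between control and *Angpt1*ΔNC eyes. UMIs were summed per library and tested with edgeR's quasi-likelihood test across all genes, and again with DESeq2; p-values are adjusted by Benjamini-Hochberg over all genes tested. With 2 controls and 1 *Angpt1*ΔNC library, the latter is assumed to vary like the controls. Calls made by both tools are reported first, since edgeR made too many calls on simulated data whose spread differed between genes. Fewer expressing cells within a label and less RNA per cell cannot be told apart in these sums.

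With TM1 to TM11 together, *Chil1* fell by 1.12 on the log2 scale (SE 0.21, adjusted p = 0.014 with edgeR and 1.7e-05 with DESeq2). It was the only one of the 4 called, where edgeR called 8.97% of 13942 genes, 5.52% lower and 3.46% higher, and DESeq2 called 4.49%. *Chad* changed by -0.44 (SE 0.16, adjusted p = 0.12 with edgeR), *Nell2* by -0.46 (SE 0.20, adjusted p = 0.18) and *Fmo2* by -0.27 (SE 0.18, adjusted p = 0.39). Cells were typed as male if they held a UMI of *Ddx3y*, *Eif2s3y*, *Kdm5d* or *Uty* and none of *Xist*. In these, which are 1947, 2483 and 595 TM cells, *Chil1* changed by -0.92 and *Nell2* by -1.02. *Fmo1* fell by 1.00 over TM1 to TM11 (adjusted p = 0.015 with edgeR).

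Within the TM labels, *Chil1* was lower in *Angpt1*ΔNC in 10 of 11. The 10 include TM11, where the *Angpt1*ΔNC level lay between the controls and the change of -0.75 became 0.58 without control 1. In TM1, the label with a higher value, the change of 0.28 became -0.24 without control 1. Both tools called it lower in 5 labels, TM4, TM5, TM7, TM9 and TM10, while over all genes and TM labels 0.69% of edgeR's tests were called lower by both. By edgeR alone, the share of genes called lower was 3.66% in TM4, 1.57% in TM5, 2.54% in TM7, 7.92% in TM9, 5.81% in TM10, 4.26% in TM3 and 1.61% in TM8. In TM4 it fell by 0.93 (SE 0.19, adjusted p = 0.0068 with edgeR and 0.0041 with DESeq2). In TM5 it fell by 1.87 (SE 0.25, adjusted p = 1.2e-10 and 6.7e-08 with edgeR and DESeq2), and in TM7 by 1.88 (SE 0.23, adjusted p = 0.0036 and 1.2e-11). The controls differed from each other by 0.28, 0.34 and 0.49 on the same scale in these labels. Marker sums of other cell types moved with these differences, and their part in the results was not tested. In TM4 the summed TM markers stood at 70.8, 68.6 and 28.9, of which *Myoc* made up 62.8, 59.4 and 23.2. *Angptl7* and *Edn3* were also lower in TM4 of *Angpt1*ΔNC, whereas *Tnc*, *Svep1* and *Nrp2* were above both controls and *Rspo4* was hardly detected. The keratocyte markers in TM4 stood at 21.4, 24.7 and 41.5, of which *Lum* made up 18.7, 21.5 and 37.9. *Aldh3a1* was also above both controls, at 1.73, 1.97 and 2.85. *Kera*, at 0.0628, 0.241 and 0.233, lay between them, and *Ptgds*, at 0.876, 0.988 and 0.513, lay below both. The corneal endothelium markers in TM4 stood at 4.97, 5.20 and 10.0, with *Col8a2* at 3.79, 3.39 and 6.04 and *Cldn10* at 0.756, 1.05 and 3.02. *Atp1b1* and *Slc4a11* were also above both controls, but *Cdh2*, at 0.0978, 0.135 and 0.129, lay between them. The Cd34 fibroblast markers in TM4 stood at 9.54, 9.71 and 2.19. In TM5 the TM markers stood at 17.8, 25.1 and 13.2, and in TM7 at 18.7, 20.01 and 8.43. *Myoc* in TM5, at 6.83, 13.5 and 7.23, lay between the controls. There *Angptl7*, *Tnc*, *Edn3* and *Svep1* lay below both controls and *Nrp2* above both. In TM7 *Myoc*, *Edn3* and *Angptl7* lay below both controls, *Tnc* and *Nrp2* between them, and *Svep1* above both. *Rspo4* was hardly detected in either label.

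The largest difference of *Chil1* was in TM9, where its level was 0.998, 2.20 and 0.0466, with 22 of 204, 68 of 298 and 9 of 327 cells positive. The log2 change was -4.93 (SE 0.35, adjusted p = 2.4e-41 with edgeR and 5.0e-12 with DESeq2). The pericytes of the same library, read as background, stood at 0.0371, and the epithelium of clusters 4 and 5 at 0.0181 and 0.0187. Without control 2 the change in TM9 was -3.98. TM10 had 2.04, 1.35 and 0.197 and a change of -3.21 (SE 0.30, adjusted p = 2.2e-19 with edgeR and 1.5e-07 with DESeq2). In TM9, as in TM1, TM3, TM5 and TM11, edgeR gave no weight to the spread of the single gene between the controls, so these p-values rest on the spread of all genes. In TM10 it gave that spread hardly any weight.

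EdgeR alone called *Chil1* in TM3, where it fell by 1.22 (adjusted p = 1.4e-06 with edgeR, not called by DESeq2), and in TM8, where it fell by 2.77 (adjusted p = 0.0054, against 0.062 with DESeq2). In TM3 the controls differed 1.77-fold. Without control 2 the change of *Chil1* was -0.64 in TM3 and -2.17 in TM8. DESeq2 alone called it in TM2 (adjusted p = 0.028, log2 change -0.96, edgeR 0.067), where it called 0.838% of genes lower. In TM1, TM6 and TM11 neither tool called it. Under alternative settings edgeR did call it in TM6, with DESeq2 size factors (adjusted p = 0.010) and without a filter (0.021). The same held in TM2, with robust estimation (adjusted p = 0.016 with edgeR) and without a filter (1.7e-04 with edgeR).

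**Figure D4:**
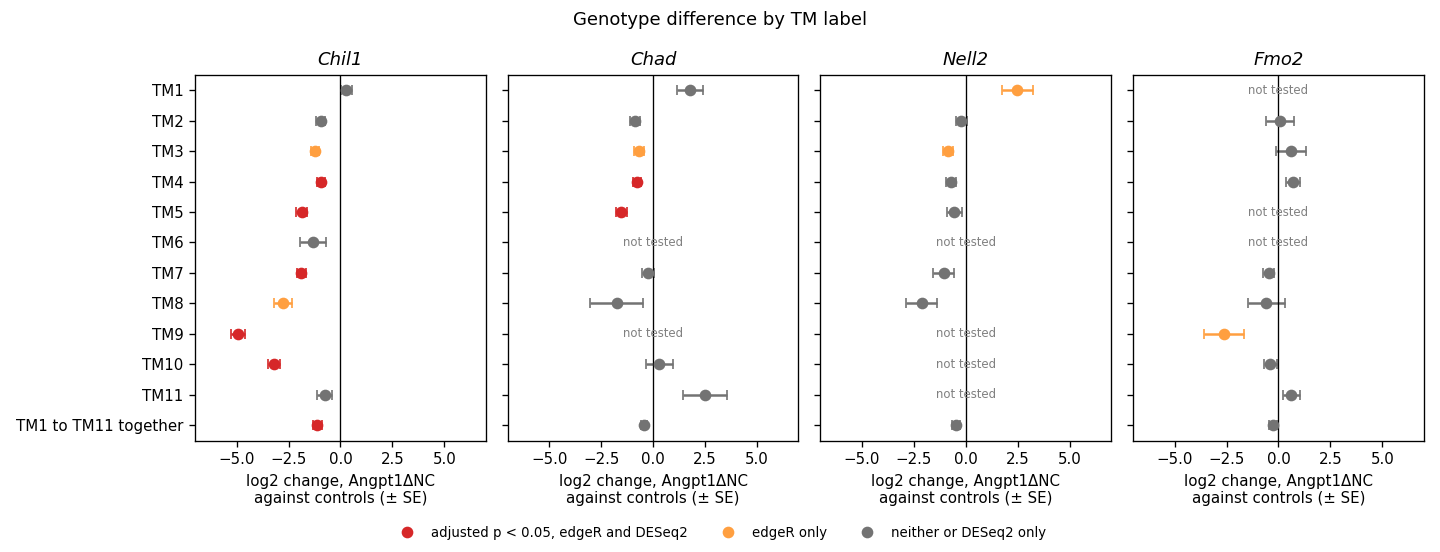
Log2 change of each gene in *Angpt1*ΔNC against the controls, with its standard error, within each TM label and in TM1 to TM11 together. Red points were called by both tools, orange by edgeR alone. Both tools called *Chil1* in 5 labels and *Chad* in 2, and neither *Nell2* nor *Fmo2* in any. DESeq2 gave *Nell2* and *Fmo2* an adjusted p in only 3 labels each.

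*Chad* was called lower by both tools in TM4 and TM5. DESeq2 gave it an adjusted p in 5 of the 9 labels tested. It fell by 0.80 in TM4 (SE 0.20, adjusted p = 0.021 with edgeR and 0.028 with DESeq2) and by 1.54 in TM5 (SE 0.27, adjusted p = 1.8e-06 with edgeR and 9.9e-04 with DESeq2). In both labels the *Angpt1*ΔNC level lay below both controls, which differed by 0.16 and 0.13 on the log2 scale. EdgeR alone called it in TM3 (change -0.69, adjusted p = 0.048, DESeq2 0.91).

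*Nell2* and *Fmo2* were called by both tools in no label. However, DESeq2 gave *Nell2* an adjusted p in only 3 of the 7 labels tested, and *Fmo2* in 3 of 8. Elsewhere a call by both tools was not possible. EdgeR alone called *Nell2* in TM3, where it fell by 0.86 (SE 0.25, adjusted p = 0.013, DESeq2 0.76), and in TM1, where it rose by 2.48 (SE 0.75, adjusted p = 0.026) and edgeR called 1.95% of genes higher. That rise in TM1 rests on 7 and 3 UMIs in the controls and 18 in *Angpt1*ΔNC, and without control 2 the change was 1.78. *Fmo2* was called lower by edgeR alone in TM9 (change -2.61, SE 0.96, adjusted p = 0.044), on 11, 14 and 3 UMIs, and its change without control 1 was -1.88. DESeq2 gave no adjusted p for these last 2 results.

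The difference of the genotype effect between TM labels was tested in 1 fit over all labels, in which edgeR called 7.08% of 11590 genes and DESeq2 11.9%. *Chad* (adjusted p = 0.013 with edgeR, 7.5e-04 with DESeq2) and *Nell2* (0.0097 with edgeR and 6.3e-05 with DESeq2) passed, but *Chad* did not with robust estimation in edgeR (adjusted p = 0.13). *Chil1* (0.067 with edgeR, 0.0057 with DESeq2) passed with DESeq2 only, and *Fmo2* (0.097 with edgeR, 0.076 with DESeq2) with neither.

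The share of cells in each TM label also differed between libraries. TM7 held 7.35%, 7.27% and 2.57% of kept cells, and TM9 held 2.25%, 2.93% and 4.83%. The part of these shares in the results for TM1 to TM11 together was examined by taking equal numbers of cells per label. There *Chil1* changed by -1.14 and *Chad* by -0.84.

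A list of 20 other genes, taken from the study's account of these labels or from TM literature, was read beside the members. It is not confined to TM genes, since *Cd34* and *Clec3b* mark fibroblasts and *Rgs5* marks pericytes. With TM1 to TM11 together, 19 were tested. EdgeR called 6 lower and 2 higher, where it called 5.52% and 3.46% of all genes, and DESeq2 called 5. The median log2 change was -0.08 against -0.01 over all genes. In TM4, 6 of 14 tested were called lower by edgeR (*Myoc*, *Rgs5*, *Cd34*, *Edn3*, *Angptl7* and *Cyp1b1*), where 3.66% of all genes were, with *Myoc* at -1.37 (adjusted p = 1.7e-04 with edgeR), *Edn3*, which encodes endothelin 3, at -3.33 (adjusted p = 4.2e-07) and *Rgs5*, a regulator of G protein signalling, at -4.48 (adjusted p = 9.6e-08); none was called higher. The list median in TM4 was -0.79 against -0.01 over all genes. The other labels varied. EdgeR called 2 lower and 3 higher of 13 in TM1, 1 higher of 10 in TM3, and 5 lower of 17 in TM7 and of 14 in TM9. It called 4 lower and 2 higher of 15 in TM8, 6 lower and 1 higher of 15 in TM10, and 1 lower of 14 in TM11. DESeq2 called 0 in TM1, TM3 and TM11, 5 in TM7, 1 in TM9 and 4 each in TM8 and TM10. Of all genes, edgeR called 2.54% lower in TM7, 7.92% in TM9, 1.61% in TM8, 5.81% in TM10 and 1.57% in TM5, and 1.95% higher in TM1. In TM2 and TM6 it called none, nor did DESeq2, with 3 and 4 of the genes at an unadjusted p under 0.05. EdgeR called no gene at all in TM6, so the absence of calls there is not particular to the list. In TM1 to TM11 edgeR tested 9269, 10400, 8681, 10430, 8135, 5200, 10758, 9613, 8595, 8527 and 4729 genes. The calls over all genes in each label, in either direction, are given in the last paragraph. In TM5, 1 of 11 was called, *Angptl7*, an angiopoietin-like protein of the TM, at -2.84 (adjusted p = 4.3e-18 with edgeR).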

How the data were processed

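Single-cell libraries were made on the 10x Genomics Chromium platform. The authors' deposited count matrices hold UMI counts per gene and cell; the submitters' processing notes name Cell Ranger 2.1.1, mm10 and Seurat 3.1.3, while the matrix headers name Cell Ranger 3.0.2. Cells kept by the authors, after their filters and doublet removal, and their label column were taken as deposited. The values in the authors' other tables were not used.

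Counts were summed per library and TM label and tested with edgeR 4.0.16 (TMM, filterByExpr) and DESeq2 1.42.0 in R 4.3.3, at an adjusted p of 0.05. Each genotype fit has 1 residual degree of freedom. The scripts were tested on simulated data. Where the spread differed between genes, edgeR's test made more false calls than its threshold allows, also with robust estimation, and DESeq2 stayed close to it; a simulation with 1 common dispersion, added after that result, stayed within it. Both tools are therefore given. The members and gene lists were chosen with earlier results of these data known. Named genes were the 4 members, the TM and family lists, and the 5 genes most like each member. Positions came from GENCODE M21 and promoters from RefSeq; 3 of 4 members had a promoter. Alternatives were size factors, filters, equal cells, male-typed cells and left-out controls; a robust edgeR fit was added after seeing the data. Each library is 1 pool of 2 to 3 mice, so p-values rest on the spread between the 2 control pools, which edgeR shares over genes. In TM1, TM3, TM5, TM9 and TM11 edgeR's p-values rest on the spread of all genes alone, and nearly so in TM10. The test of the difference between labels rests on the spread of label by library between the controls.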

Additional observations from a re-analysis of the deposited data

Results flagged for a closer look

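The genotype effect differed between TM labels for *Chad* (adjusted p = 0.0134 with edgeR's test of all label by genotype terms, and 0.133 with robust estimation in edgeR) and for *Nell2* (adjusted p = 0.00971 with the same edgeR test). *Chad* was lower in *Angpt1*ΔNC in TM5, at -1.54 on the log2 scale, and its value in TM1 was 1.77, where it had 5, 13 and 20 UMIs. *Nell2* was -0.86 in TM3 and 2.48 in TM1.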

How the results depend on the processing

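No paired analysis was possible because the groups share fewer than 2 replicate numbers. Of the alternatives of tool, scaling, filter and robust estimation to each member's result within a TM label, 113 of 127 kept its direction and its side of the threshold, 8 passed it anew and 6 lost it; none reversed a call. Without 1 control, 4 of 70 values within labels turned direction, none of them a call (*Chil1* in TM1 to -0.24 and in TM11 to 0.58, *Chad* in TM10 to -0.12, *Fmo2* in TM2 to -0.30). Results to which DESeq2 gave no adjusted p were left out of these counts. For TM1 to TM11 together, *Chil1* stayed lower and called under every alternative with a test, and its change without 1 control ranged from -1.34 to -0.87. The ranges without 1 control were -0.54 to -0.34 for *Chad*, -0.68 to -0.22 for *Nell2* and -0.38 to -0.16 for *Fmo2*. *Chad* passed with equal cells per label (-0.84), and *Nell2* without a filter (-0.47) and in male-typed cells (-1.02). The shares of all genes called with equal cells and in male-typed cells are not given here. For the difference between labels, *Chil1* passed with DESeq2 (adjusted p = 0.00567) and without a filter (3.22e-82 with edgeR), *Fmo2* without a filter (0.00344 with edgeR), and *Chad* was lost with robust estimation (0.133 with edgeR). The robust fit, added after seeing the data, also lost *Chil1* in TM8 and gained it in TM2.

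Counts of called genes moved strongly with the tool; the cause was not tested. With TM1 to TM11 together, edgeR called 1251 genes, DESeq2 617 and edgeR without a filter 2441; for the difference between labels edgeR called 821, and 1738 without a filter. With DESeq2 the counts in TM1 to TM11 were 37, 83, 70, 165, 19, 55, 238, 123, 187, 154 and 8, against 444, 145, 610, 680, 202, 0, 545, 344, 1296, 986 and 102 with edgeR. Without a filter edgeR called 550 in TM2, 296 in TM6, 1351 in TM7 and 729 in TM8. With DESeq2 size factors it called 52 in TM2, 344 in TM6 and 854 in TM7, and with robust estimation 257 in TM2 and 312 in TM6.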
